A study of Homo sapiens with 24 samples.

Results

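The data are reporter counts for 3′ UTR fragments of 4 human genes whose proteins bind or silence RNA: GIGYF1, DDX6, RBM26 and FXR1. Every entry of these genes in the deposited table was taken, which gave 60 variants on 48 SNP fragments and 108 oligos, of 24780 oligos and 1637 genes in the whole table. The genes were selected on allelic effects and activities seen earlier in these same libraries, so the values of their fragments are given as descriptions and carry no test of their own. The study was a massively parallel reporter assay of 3′ UTR variants linked to neurological disorders, in which a reporter plasmid was made for each fragment with the reference base and for each of its alternatives. The pool was transfected with a lipid reagent into SH-SY5Y, a human neuroblastoma line, and into a human microglia line immortalised with SV40. Plasmid DNA and poly(A) RNA were sequenced from 6 biological replicates per line, which made 4 groups of 6 libraries. Both lines are immortal cultures, no group had a further treatment, and a reporter carries the fragment outside its own gene. Each library pools the cells of a transfection, so fewer cells with reporter RNA and less reporter RNA per cell cannot be told apart. The counts are of reporter oligos, so the identity of the cell lines was not checked against marker genes here.

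GIGYF1 binds the cap-binding protein 4EHP and represses the translation of mRNAs to which RNA-binding proteins or microRNAs recruit it. DDX6 is a DEAD-box RNA helicase of P-bodies that joins the CCR4-NOT deadenylase to decapping and translational repression, and GIGYF proteins can bind it. RBM26 is a zinc finger RNA-binding protein linked to the turnover of polyadenylated nuclear RNA, and FXR1 is an RNA-binding paralogue of the fragile X protein. The fragments come from the genes' own mRNAs, so a value below describes a reporter with part of that 3′ UTR, not the protein's activity and not the expression of the gene.

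In the RefSeq annotation of GRCh38.p14, the build of the files, GIGYF1 lies on chromosome 7 from 100679507 to 100694250 and DDX6 on chromosome 11 from 118747763 to 118791744. RBM26 lies on chromosome 13 from 79311827 to 79406255 and FXR1 on chromosome 3 from 180912670 to 180982753. The table gives neither the position of a SNP nor the fragment's sequence, so the fragments are named by gene, SNP and base. GIGYF1 had 5 SNP fragments and 14 oligos, DDX6 had 17 and 38, RBM26 had 15 and 32, and FXR1 had 11 and 24. Of the 48 SNPs, 37 had 1 alternative base, 10 had 2 and 1 had 3. Alternatives of the same SNP are set against a common reference oligo, and alleles of a fragment share all other bases, so they are not independent measurements.

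A library of SH-SY5Y held 16556722 to 19101103 counts for DNA and 11764547 to 18100832 for RNA. A microglia library held 12154918 to 17570853 for DNA and 7018516 to 10437069 for RNA. Oligos of the 4 genes took between 0.215% and 0.26% of a library. Their median DNA count per library, averaged over the 6 replicates, was 334 in SH-SY5Y and 274 in microglia. FXR1 oligos were the best filled, with a median of 552 DNA counts in SH-SY5Y, and DDX6 oligos the least, with 212. Only oligos that averaged 10 or more DNA counts in a line were tested, which were 100 of the 108 in SH-SY5Y and 101 in microglia. Of these, 12 in SH-SY5Y and 15 in microglia averaged under 100.

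Fragment activity is the log2 ratio of RNA to plasmid DNA of an oligo, scaled so that the typical oligo of the pool lies near 0. The allelic effect is the log2 ratio of alternative to reference allele in RNA minus that in DNA. The ± values are standard deviations (SD) of the 6 RNA replicates, each set against the mean of the DNA libraries, so they hold the spread of the RNA only. The fitted value comes from edgeR's quasi-likelihood model over the whole table, and a value is said to have passed the threshold where its Benjamini-Hochberg adjusted p was under 0.05 over the whole table.

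For fragment activity in SH-SY5Y, 9.06% of all oligos tested passed the threshold, and 7 of the 100 tested oligos of these genes did, 2 higher and 5 lower than the pool (4.26% and 4.8% of all oligos). In microglia 20.9% of all oligos passed, against 15 of 101 here, 5 higher and 10 lower (8.39% and 12.5% of all oligos). The lower ones were oligos of GIGYF1, RBM26 and DDX6, and the higher ones were of FXR1 and, for 1 oligo, DDX6. For allelic effects, 0.399% of all variants passed in SH-SY5Y and 1 of 54 did here, and in microglia 1.74% passed and 1 of 52 did here. For the difference between lines (microglia minus SH-SY5Y), 0.917% of all oligos and 1 of 99 here passed for activity. For the difference in allelic effect, 0.0462% of all variants and 0 of 51 here passed by edgeR's test. At an unadjusted p under 0.05 the latter count was 6 of 51 here, beside 736 of 12989 over all variants. DESeq2 with its adjustment gave 1 here and 29 over all variants. Since the genes were chosen with these contrasts in view, nothing is read from the counts.

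GIGYF1 held the lowest values of the 4 genes, on 2 oligos that were rare in the plasmid pool, and a further fragment whose alleles were all low in microglia. The fragment of rs221790 has the reference base C and the alternatives T and G. In SH-SY5Y the T oligo had DNA counts of 17 to 57 with a median of 34.5, and its RNA counts were 3, 2, 2, 1, 0 and 0 in replicates 1 to 6. The C oligo on the same fragment had DNA counts of 152 to 203 with a median of 178, and RNA counts of 38 to 173 with a median of 137.5. The T allele was thus 16.8% of the DNA counts of the pair and 1.06% of the RNA counts, and the ranges of the share over libraries, 8.63% to 23.5% in DNA and 0% to 1.7% in RNA, did not overlap.

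The C-to-T effect at rs221790 in SH-SY5Y was -4.10 ± 0.95 (SD, n = 6), negative in 6 of 6 replicates, from -5.73 through a median of -3.60 to -3.17, and it passed the threshold. It rests on 8 RNA counts of the T allele. From the summed counts, T was 18.9-fold lower than C (exact 95% interval 9.35 to 44.6). Such intervals and the floors given below cover counting error only. They leave out the scatter between replicates and are not tests. The call was lost whichever of the 6 replicates was left out, with fitted effects from -4.46 to -3.66. In microglia the T oligo had 91 DNA and 12 RNA counts in all, and 9 of these 12 were in replicate 2. There the effect was -1.59 ± 2.08, positive in 2 of 6 replicates, and did not pass. The ratio of summed counts was 3.27-fold lower (1.75 to 6.64), an interval that leaves out this scatter. The difference between lines for this variant, 2.33, did not pass the threshold either. Without replicate 2 the microglia effect was -2.85 and the difference 1.20, and neither passed.

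Taken as an oligo against the pool, rs221790 T had an activity of -4.33 ± 1.13 in SH-SY5Y, 20.9-fold lower by summed counts (10.4 to 49.1), and the C oligo -0.18 ± 0.67. In microglia T had -2.07 ± 1.82 and C -0.42 ± 0.81. The reference oligo thus lay near the pool in both lines, while the T oligo was low in all SH-SY5Y replicates and ranged from -3.39 to 1.07 in microglia. The G oligo had 1 DNA count in SH-SY5Y, none in microglia and no RNA count, and was not tested.

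At rs221792 the rare oligo was the reference base T. It had DNA counts of 13, 6, 12, 18, 12 and 0 in SH-SY5Y replicates 1 to 6, 61 in all, and no RNA count in any of the 6 RNA libraries. Against the floor of 3 counts over the group, its RNA was at least 15.8-fold lower than its DNA predicts, and it passed the threshold for activity. With a replicate left out, it met the DNA minimum only without replicate 2, where the call was lost, or without replicate 6, with fitted activities of -6.49 to -6.31. The oligo had a mean of 10.2 DNA counts, close to the minimum of 10. In microglia its mean was 6.5 DNA counts with 2 RNA counts in all, and it was not tested there.

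The 3 alternatives of rs221792 were well filled and near the pool. The C oligo had 719 to 900 DNA counts in SH-SY5Y, and activities of 0.01 ± 0.35 in SH-SY5Y and 0.06 ± 0.23 in microglia. The A oligo had -0.18 ± 0.69 and 0.07 ± 0.28, and the G oligo -0.37 ± 1.98 and -0.48 ± 0.58. Relative to the empty reference, C was at least 16-fold higher in SH-SY5Y, A at least 14.5-fold and G at least 11.4-fold. None of these allelic effects passed the threshold by edgeR. That of C was called by DESeq2 and by edgeR without replicate 6, with a fitted 6.41 against 6.04, both resting on the reference that has no RNA count. With a pseudocount of 0.5 its replicates ran from 2.92 through 3.33 to 4.09 (SD 0.44), and limma on such ratios gave 3.42. The size of this effect thus differed with the treatment of the empty reference. In G the replicate values in SH-SY5Y ran from -4.22 to 1.00, with 8 RNA counts in the lowest library and 293 in the highest, while its DNA counts stayed between 217 and 259.

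A more fully filled GIGYF1 fragment, rs116042719, was low with every base. In microglia the reference G had an activity of -0.91 ± 0.94, A of -1.27 ± 0.44 and T of -1.13 ± 0.40, negative in 6 of 6 replicates for each, and all 3 passed the threshold. The A oligo, the best filled of them, had 322 to 585 DNA counts and 66 to 165 RNA counts there, and its replicates ran from -2.06 through -1.15 to -0.92. In SH-SY5Y, A had -0.68 ± 0.17, from -0.92 to -0.47, and passed, although not without replicate 5 (-0.74 to -0.59 over the 6 fits). G and T had lower but more scattered values in SH-SY5Y, -1.37 ± 1.74 and -1.38 ± 1.62, which did not pass. Their replicates ran from -4.20 to -0.32 and from -4.13 to 0.02, with as few as 11 and 10 RNA counts in the lowest library. The allelic effects of this fragment were 1.22 ± 1.78 for A and -0.18 ± 2.17 for T in SH-SY5Y, and -0.30 ± 0.82 and -0.16 ± 1.29 in microglia, none past the threshold. The fitted activities of rs117231629 and rs56148928 lay between -0.09 and 0.33 in both lines with either base. With the reference base, their SH-SY5Y replicates ran from -1.20 to 0.68 and from -1.61 to 0.93 respectively.

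DDX6 had the widest range of plasmid counts and the 1 activity difference between the cell lines that passed the threshold among the 4 genes. At rs200752984 the reference C oligo had 26 to 50 DNA counts in SH-SY5Y and RNA counts of 3, 5, 3, 5, 0 and 2, with an activity of -3.19 ± 1.30, from -5.87 to -2.35. By summed counts, 18 RNA against 221 DNA, it was 9.52-fold lower than the pool (5.89 to 16.4). In microglia the same oligo had 56 to 104 DNA counts and 40 to 60 RNA counts, and an activity of 0.17 ± 0.32, from -0.12 through 0.06 to 0.76. The replicates of the lines did not overlap, and the share of all oligos for which this holds was not computed. The difference, 3.34, passed the threshold. It ranged from 3.11 to 3.58 with a replicate number left out and was lost without replicate 1 or replicate 6. With a minimum of 50 DNA counts the oligo was not tested in SH-SY5Y, since its mean there was 36.8. The T oligo of this SNP had a mean of 4.17 DNA counts in SH-SY5Y, where it was not tested, and of 14.5 in microglia, with an activity of -0.07 ± 0.55.

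At rs2004781 of DDX6 the fitted allelic effects had opposite signs in the lines. The G-to-A effect was -2.16 ± 1.73 in SH-SY5Y, negative in 6 of 6 replicates and from -4.91 through -1.62 to -0.52. In microglia it was 1.32 ± 1.20, positive in 6 of 6 and from 0.05 through 1.09 to 3.39. Neither effect nor their difference of 3.54 passed the threshold by edgeR, and the difference passed by DESeq2. The A allele was 66.7% to 81.3% of the DNA counts and 7.81% to 66.7% of the RNA counts in SH-SY5Y libraries, and 35.4% to 65.4% of DNA and 52.8% to 92.5% of RNA in microglia. The scatter lay in both oligos: in SH-SY5Y the RNA counts ran from 3 to 118 for G, with DNA counts of 37 to 73, and from 6 to 107 for A, with DNA counts of 106 to 174. In microglia the DNA counts also scattered, from 38 to 150 for G and from 26 to 170 for A. All replicate values of a line are set against the mean of these DNA libraries, so their signs are not independent of it. The activity of the A oligo was -1.33 ± 1.66 in SH-SY5Y and 0.55 ± 0.27 in microglia. It was below 0 in 6 of 6 and above 0 in 6 of 6 replicates respectively, and the difference of 1.87 did not pass.

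Another DDX6 fragment, rs485901, had activities of -0.94 ± 1.67 and -1.79 ± 1.24 for C and T in SH-SY5Y, and of 0.37 ± 0.58 and 0.17 ± 0.59 in microglia, with means of 50.5 to 84.7 DNA counts. None of these passed. The T replicates, -3.74 to -0.59 in SH-SY5Y and -0.34 to 1.24 in microglia, did not overlap, and their difference of 1.95 did not pass. The share of all oligos without such overlap was not computed. The fragment was singled out after its values were seen.

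Of the remaining DDX6 oligos, 1 passed as higher and 1 as lower, both in microglia. The A oligo of rs2077579 passed the threshold in microglia with 0.62 ± 0.41, from 0.09 through 0.65 to 1.06, but not without replicate 2 or replicate 3 (0.53 to 0.68 over the 6 fits). In SH-SY5Y it had 0.00 ± 0.65. The C oligo of rs7948407 passed in microglia with -0.45 ± 0.29, from -0.80 through -0.48 to -0.06, a call lost without replicate 1, 2, 3 or 5 (-0.55 to -0.31). In SH-SY5Y it had -0.15 ± 0.27, and the T oligo of that SNP had -0.20 ± 0.53 and -0.26 ± 0.13 in the respective lines. The best filled oligo of all, rs488219 G with means of 1710 and 1300 DNA counts, had 0.09 ± 0.31 in SH-SY5Y and 0.01 ± 0.12 in microglia.

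Of the DDX6 allelic effects, 17 could be tested in SH-SY5Y and 18 in microglia, and none passed the threshold. The fitted effects in SH-SY5Y ran from the -2.16 of rs2004781 to 1.49 ± 2.40 for rs112143902 G-to-A. In microglia they ran from -0.34 ± 0.43 for rs2077579 A-to-C to the 1.32 of rs2004781. At rs640120, the T-to-A effect was 0.94 ± 0.36 and the T-to-G effect 0.82 ± 0.44 in microglia, each positive in 6 of 6 replicates and not past the threshold. In SH-SY5Y these were 1.15 ± 1.51 and -0.28 ± 3.20, each positive in 4 of 6. The 3 oligos of rs1048040 and the C oligo of rs183558069 had no count in any library.

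RBM26 carried the variant that passed the threshold for an allelic effect in microglia. At rs3187338 the reference G oligo had 590 to 885 DNA counts in microglia and RNA counts of 96 to 159 with a median of 129. The A oligo had fewer DNA counts, 211 to 414, and more RNA counts, 105 to 259 with a median of 190.5. The A share rose from 29.4% of the DNA counts to 59.2% of the RNA counts, and the library ranges, 26.3% to 33.1% in DNA and 51.8% to 63.8% in RNA, did not overlap.

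The G-to-A effect at rs3187338 in microglia was 1.78 ± 0.30, 3.43-fold, and it passed the threshold, with replicates from 1.38 through 1.90 to 2.09. It lay between 1.70 and 1.86 with any replicate left out and passed each time. In SH-SY5Y the effect was 1.22 ± 0.66, from 0.31 through 1.20 to 2.24, positive in 6 of 6 replicates, and did not pass by edgeR; DESeq2 called it. The A share there went from 32.2% of DNA to 52.0% of RNA, with ranges of 28.8% to 34.3% and 37.0% to 69.1%. The difference between the lines, 0.55, did not pass the threshold.

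Set against the pool, the reference oligo of rs3187338 was the low one. Its activity was -1.76 ± 0.12 in microglia, the smallest SD among the 10 oligos called lower there, and -1.48 ± 0.51 in SH-SY5Y, where replicates ran from -2.08 to -0.85. Both passed the threshold. The A oligo had 0.02 ± 0.27 in microglia and -0.25 ± 0.54 in SH-SY5Y, near the pool, and neither passed. In microglia all 6 replicates of G, the highest at -1.57, lay below all 6 of A, the lowest at -0.39. In SH-SY5Y the highest G replicate, -0.85, and the lowest A replicate, -0.89, overlapped slightly.

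On 2 other RBM26 fragments both alleles passed as lower in microglia, and no allelic effect passed there. At rs7317343, C had -1.46 ± 0.26 and T had -1.59 ± 1.48, both past the threshold; the call of T was lost without replicate 1 or replicate 6 (-2.0 to -1.15). The C oligo had 133 to 380 DNA and 46 to 85 RNA counts, while T was thin, with 25 to 126 DNA and 2 to 33 RNA counts. In SH-SY5Y, C had -1.21 ± 1.90 and T had -0.15 ± 2.94, and neither passed. The T oligo gave 83, 87, 96 and 72 RNA counts in replicates 1, 2, 5 and 6 and 1 count each in replicates 3 and 4, with 59 to 95 DNA counts throughout. C fell to 6 RNA counts in replicate 3 only, against 80 to 241 in the other libraries.

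At rs1409018, G had -0.74 ± 0.28 and A had -0.80 ± 0.40 in microglia, both past the threshold and both negative in 6 of 6 replicates. In SH-SY5Y they had -0.47 ± 0.32 and -0.52 ± 0.49, which did not pass. The fragment was well filled, with means of 580 to 782 DNA counts, and its allelic effect was -0.10 ± 0.40 in SH-SY5Y and -0.09 ± 0.40 in microglia. The G oligo of rs1408656 passed in microglia with -0.61 ± 0.37, from -1.37 through -0.54 to -0.36, and the A oligo had -0.29 ± 0.19. In SH-SY5Y these had -0.08 ± 0.39 and -0.03 ± 0.22.

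The other 11 RBM26 fragments gave no call. All 17 RBM26 variants could be tested in both lines, and the fitted allelic effects besides rs3187338 ran from -0.32 to 1.69 in SH-SY5Y and from -0.49 to 0.45 in microglia. The 1.69 (± 2.03) was rs77441937 G-to-C, positive in 5 of 6 replicates. Its G oligo went from 11 to 322 RNA counts in SH-SY5Y with DNA counts of 257 to 372, and in microglia the effect was 0.45 ± 0.54.

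FXR1 activities spanned the narrowest range of the 4 genes, -0.36 to 0.58 in SH-SY5Y and -0.29 to 0.58 in microglia, and the oligos that passed all lay above the pool. At rs16832224 the G oligo had 0.41 ± 0.20 in SH-SY5Y and 0.41 ± 0.12 in microglia and passed in both lines, with 653 to 1129 DNA counts per library. The SH-SY5Y call was lost without replicate 2, 4, 5 or 6 (0.36 to 0.48). The T oligo had 0.33 ± 0.15 in microglia, where it passed, although not without replicate 2 or replicate 6 (0.28 to 0.39), and -0.10 ± 0.41 in SH-SY5Y. The T-to-G effect in SH-SY5Y was 0.54 ± 0.54, positive in 6 of 6 replicates, and in microglia 0.09 ± 0.15, and neither passed.

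At rs6799476 the T, A and C oligos had 0.43 ± 0.19, 0.50 ± 0.21 and 0.42 ± 0.32 in microglia, above 0 in 6 of 6 replicates for each base. T and A passed, T not without replicate 3 or 6 (0.32 to 0.55) and A not without replicate 6 (0.38 to 0.64), and C did not pass. In SH-SY5Y the 3 oligos had 0.19 ± 0.45, 0.29 ± 0.53 and 0.24 ± 0.69. The allelic effects on this fragment lay between -0.03 and 0.07 in both lines. The G oligo of rs2601 passed in SH-SY5Y with 0.58 ± 0.33, from 0.24 through 0.50 to 1.09, a call lost without replicate 2, 3 or 6 (0.48 to 0.64), and in microglia it had 0.02 ± 0.27.

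None of the 12 tested FXR1 variants passed the threshold for an allelic effect in either line. The values ran from -0.54 to 0.54 in SH-SY5Y and from -0.24 to 0.73 in microglia. The 0.73 (± 0.63) was rs62291435 A-to-G, positive in 5 of 6 replicates. In SH-SY5Y that variant had -0.12 ± 1.99, with replicates from -4.05 to 1.65 and 10 to 198 RNA counts of the G oligo against 138 to 190 DNA counts.

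The reference T oligo of FXR1 rs1805629 had RNA but no DNA. None of the 12 DNA libraries held a count of it, while the RNA counts were 289 to 536 in SH-SY5Y, with a median of 339.5, and 202 to 288 in microglia, with a median of 223.5. Against the floor of 3 DNA counts over the group, RNA exceeded the DNA by at least 961-fold in SH-SY5Y and at least 782-fold in microglia, relative to the pool. The C oligo of the same SNP had 508 to 676 DNA counts and 259 to 1051 RNA counts in SH-SY5Y, with activities of 0.14 ± 0.73 and 0.15 ± 0.49 in the respective lines. The table held 432 oligos with no DNA count, of which 397 had no RNA count either, and 18 had at least 100 RNA counts, all of these in every one of the 12 RNA libraries. The highest activity of any tested oligo of the table was 3.76 (log2) in SH-SY5Y and 1.95 in microglia. The floors above reflect the missing DNA counts and are not activities, and no activity or allelic effect can be formed for the T oligo.

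The alleles of a fragment were also compared with each other. In microglia, 45 fragments of these genes had at least 2 tested alleles, and on 3 of these all alleles passed as lower (GIGYF1 rs116042719, RBM26 rs7317343 and RBM26 rs1409018). On 1, FXR1 rs16832224, all passed as higher. Over all such fragments of the table, 8.22% had all alleles lower and 3.3% all higher. In SH-SY5Y none of 44 fragments had all alleles called in 1 direction, against 2.19% lower and 1.11% higher over the table. The standard deviation of fragment means was 0.44 in microglia and that of alleles within a fragment 0.34, against 0.45 and 0.24 over all fragments. In SH-SY5Y these were 0.55 between and 0.90 within fragments, against 0.45 and 0.37 over all fragments. Without rs221790 and rs221792 of GIGYF1, whose low oligos had 8 and 0 RNA counts, they were 0.39 and 0.39, a check added after these values were seen. The values over all fragments were not recomputed without such fragments, so they are not a like comparison for it.

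Between the lines, 19 oligos passed in either line and 3 in both: GIGYF1 rs116042719 A, RBM26 rs3187338 G and FXR1 rs16832224 G, each in the same direction. The rs221792 T oligo, 1 of the 19, was not tested in microglia. Over the table, 25.7% of the oligos called in either line and tested in both were called in both. Of the 15 oligos called in microglia, 13 had rounded activities of the same direction in SH-SY5Y. Of the others, FXR1 rs16832224 T had the opposite direction there (-0.10) and DDX6 rs2077579 A rounded to 0.00. Over the table, unrounded activities had the same direction for 89.7% of such oligos. Over the 99 oligos tested in both lines, the activities had a Pearson r of 0.499 and a Spearman rho of 0.373, against 0.606 and 0.498 over all oligos. Over 51 variants, the allelic effects had an r of 0.297 and a rho of -0.0183, with the same sign in 25, and 0.199 and 0.164 over all variants. These correlations are across oligos that share fragments, the plasmid pool and the libraries, and are given as descriptions.

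Replicates of the same oligo scattered more in SH-SY5Y than in microglia. The median SD of activity was 0.56 over the 100 oligos in SH-SY5Y and 0.29 over the 101 in microglia, and the medians over all tested oligos were 0.50 and 0.24. An SD over 1 was found in 27 of the 100 and 3 of the 101, against 17.4% and 2.92% of all tested oligos. Among oligos with a mean of at least 100 DNA counts, the RNA counts of replicates spanned more than 10-fold for 16 of 88 in SH-SY5Y and 0 of 86 in microglia, while the DNA counts did so for none in either line. Under 10 RNA counts in some library occurred for 10 of those 88 and for 0 of the 86. Shares over all oligos were not computed for these ranges and low counts. Of the 7 SH-SY5Y activity calls, 3 rest on fewer than 20 RNA counts in all: rs221790 T, rs221792 T and rs200752984 C. The part of this scatter in the differences between the lines was not tested.

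By the distance between pairs of allelic effects in SH-SY5Y and microglia, the variant of another gene most like RBM26 rs3187338 was the C-to-T change of ITGA8 rs878321, with 1.14 ± 1.27 and 1.63 ± 0.36 (distance 0.168, among 225 candidates past the threshold in microglia). The one most like GIGYF1 rs221790 C-to-T was the C-to-A change of TANC2 rs114844338, with -4.32 ± 0.98 and -1.63 ± 2.52 (distance 0.229, among 49 candidates past it in SH-SY5Y). ITGA8 encodes an integrin alpha subunit and TANC2 a synaptic scaffold protein.

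Other genes of the same pathways were counted from lists of 4EHP and GIGYF partners, decapping and P-body proteins, deadenylases and microRNA pathway proteins. Further lists held fragile X partners, RBM26 partners with the nuclear exosome, and other 3′ UTR binding proteins. The table held 15 of the 152 listed genes, and none of the 9 on the fragile X list. For allelic effects, 0 of 107 tested variants passed in SH-SY5Y (edgeR), 2 of 107 passed in microglia and 0 passed for the difference. The shares over all variants were 0.399%, 1.74% and 0.0462%, so the microglia share of 1.87% was near that of the table. Both microglia calls were in LSM14A, a P-body protein that binds DDX6. The C-to-T effect of rs71351753 was 1.21 ± 0.38 (edgeR adjusted p = 0.00369) and the A-to-G effect of rs944729 was 0.82 ± 0.40 (edgeR adjusted p = 0.0157). The reference oligos of both were low in microglia, at -1.34 ± 0.40 and -1.07 ± 0.35. For activity, 24 of 203 oligos of the listed genes passed in SH-SY5Y, 14 higher and 10 lower, and 44 of 203 in microglia, 16 higher and 28 lower, or 11.8% and 21.7% beside the 9.06% and 20.9% of all oligos. For the difference in activity 2 of 203 passed, beside 0.917% of all oligos. By list, the microglia calls were 1 of 6 for 4EHP and GIGYF partners, 3 of 21 for decapping and 2 of 22 for deadenylation. They were 5 of 16 for the microRNA pathway, 0 of 4 for RBM26 partners and 33 of 134 for the other 3′ UTR binding proteins. The share over all oligos is the same 20.9%. The microRNA pathway list stood for DGCR8 alone, and none of its other genes was in the table. The other 3′ UTR binding proteins stood for 6 genes. The remaining lists counted here had 2 genes each, so these are counts for few genes, not rates of a pathway.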

How the data were processed

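DNA and RNA libraries of 6 replicates per cell line were analysed from a table of counts per variant and allele that the authors deposited without scaling for depth. Per the labels' protocols, a reporter-specific primer with a molecular identifier was used for the RNA. Whether DNA counts were collapsed and on which strand the alleles are written is not stated in the labels. The build was hg38, and SAMtools 1.10, Bowtie2 (no version stated), UMI-tools 1.0.0 and cutadapt 2.7 were used, per the submitters' processing notes. A sequencing error at the variant base would assign a read to the wrong allele.

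Models were fitted to all variants or oligos of the table with edgeR 4.0.16 in R 4.3.3 (quasi-likelihood F test). Allelic effects had the library as a block and a reference and an alternative column per library; activities were scaled with TMM. A test needed 10 or more DNA counts on average for every allele, and replicate values used a pseudocount of 0.5. Alternatives were DESeq2 1.42.0, limma 3.58.1 on log2 allelic ratios computed from the deposited counts, total-count scaling, DNA minimums of 50 and of 1 count in all, a replicate block and leaving out each replicate number. The code was tested on simulated data. The genes and the pathway lists were chosen with earlier results of these data known. Values per replicate were given for oligos or variants past the threshold in any comparison and for the largest allelic effect of each gene and line. Replicates are separate transfections per the labels. The labels do not state whether DNA and RNA libraries of the same number belong together, and the main fits did not take them as pairs. Deviations of same-numbered DNA and RNA libraries had correlations of 0.00555 to 0.0787. For other numbers the medians were -0.0145 to -0.00917, and the own number matched best in 5 or 6 of 6 cases. Between DNA libraries of the 2 lines it matched best in 4 or 6 of 6. Whether the numbers are pairs was not tested, and fits with a replicate block are given in the last section.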

Additional observations from a re-analysis of the deposited data

Results flagged for a closer look

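In 5 of 50 groups of 6 replicates that were examined, 1 replicate stood apart from the others by Dixon's criterion, which chance alone exceeds in about 1 of 20 groups. The replicate of the C-to-T effect of GIGYF1 rs221790 at -5.73 in SH-SY5Y (replicate 5) lay below the other replicates at -3.80 to -3.17. The activity of DDX6 rs200752984 C in SH-SY5Y was -5.87 in replicate 5, also from 0 RNA counts, against -3.33 to -2.35 in the others. That of RBM26 rs7317343 C in SH-SY5Y was -5.48 in replicate 3, against -2.10 to -0.15. In microglia, replicate 6 stood apart for GIGYF1 rs116042719 G, at -2.94 against -1.09 to -0.37, and for RBM26 rs1408656 G, at -1.37 against -0.59 to -0.36. Each of these 5 was the lowest of its group.

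For DDX6, 3 differences between the cell lines on 2 fragments either passed a test or had all replicates of the lines on opposite sides of 0. The activity of rs200752984 C differed by 3.34 (microglia minus SH-SY5Y), and this passed. The G-to-A effect of rs2004781 differed by 3.54, and the activity of its A oligo by 1.87. All 6 replicates of one line lay on the opposite side of 0 from all 6 of the other in both of the latter, which did not pass by edgeR. The share of all oligos or variants with replicates on opposite sides was not computed, so nothing is read from this count.

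The reference T oligo of FXR1 rs1805629, which entered no comparison, had 2237 RNA counts in SH-SY5Y and 1390 in microglia with no DNA count in the 12 DNA libraries.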

How the results depend on the processing

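Of 25 values of these genes past the threshold, DESeq2 kept 25 with their direction, the 1-count DNA minimum 25 of 25, the 50-count minimum 20 of the 20 it could test, limma 2 of 2 and total-count scaling 22 of 23 (FXR1 rs16832224 G in SH-SY5Y was lost at 0.35). Leaving out 1 replicate number ended 30 of 146 calls, and no called value changed sign. The counts of calls in these genes moved in SH-SY5Y: allelic effects from 1 to 5 with DESeq2, 0 at 50 DNA counts and 0 to 2 with 1 replicate left out; activities from 7 to 16 with DESeq2, 4 at 50 DNA counts and 4 to 6 with 1 replicate left out (4 without replicate 5). For differences between lines, the allelic count went from 0 to 1 with DESeq2, and the activity count from 1 to 0 at 50 DNA counts and 0 to 1 with a replicate left out. Over the whole table, allelic calls in SH-SY5Y went from 52 to 350 with DESeq2, 31 with limma and 30 to 45 with a replicate left out; in microglia from 226 to 352 and 127; for the difference from 6 to 29, and 2 to 8 with a replicate left out. Activity calls went from 2188 to 3669 with DESeq2 in SH-SY5Y, and for the difference from 221 to 473 with DESeq2, 147 with total counts and 118 to 187 with a replicate left out. The causes were not tested beyond the number of samples or oligos that each setting keeps. Of the 7 SH-SY5Y activity calls, 3 rest on under 20 RNA counts.

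With a replicate block, each DNA library was set against the RNA library of the same number. It kept 20 of the 25 calls; those lost were GIGYF1 rs221790 C-to-T (-4.24), rs221792 T (-6.20) and rs116042719 A (-0.68) and FXR1 rs16832224 G (0.40) in SH-SY5Y, and the DDX6 rs200752984 C difference (3.45), so that count went from 1 to 0. The block also brought GIGYF1 rs221792 T-to-C (6.23) and rs116042719 G (-1.94) in SH-SY5Y past the threshold. Over the whole table it left 3 of 6 allelic differences and 133 activity differences. RNA libraries correlated best with the DNA library of their own number in 5 or 6 of 6 cases, as a hint from the data, not the design. Same-numbered DNA libraries of the 2 lines had correlations of 0.00745 to 0.0941 and matched best in 4 or 6 of 6 cases. The match by number is thus not particular to DNA and RNA of the same line. Same-numbered RNA libraries of the lines had correlations of 0.0684 to 0.118; the part of this in the differences was not tested.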
